A study of Homo sapiens with 6 samples.

Results

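The glycolysis and hypoxia response genes are 36 genes chosen by name, 24 for glucose uptake, glycolysis and lactate export and 12 for the response to low oxygen, out of 38170 features in the deposited table. All 36 had a row of their own and enough counts to be tested. Their counts and FPKM (fragments scaled for transcript length and sequencing depth) were compared between 3 libraries of A549 cells that overexpress LOC401312 and 3 libraries of A549 cells with an empty vector. A549 is a human lung adenocarcinoma line, and LOC401312, annotated by RefSeq as a long non-coding RNA, was delivered with piggyBac, a transposon that inserts into the genome. All cells grew in DMEM with 10% fetal bovine serum at 37 °C and 5% CO2, and the labels name no low-oxygen treatment. Whether each line was a single clone or a pool, and whether the 3 libraries of a group came from separate cultures, is not stated in the labels, so p-values measure the spread between these libraries only, which may be technical.

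Glycolysis splits glucose into pyruvate in the cytosol, and tumour lines such as A549 are known to turn much of that pyruvate into lactate. Many genes here are also known targets of the hypoxia-inducible factors (HIF), whose alpha subunits HIF1A and EPAS1 are hydroxylated by the oxygen-dependent EGLN enzymes, bound by VHL and degraded while oxygen is present. When oxygen falls, the alpha subunits persist, pair with ARNT and bind the core letters ACGTG or GCGTG in promoters and enhancers.

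Before the members are described, a few facts of the libraries bear on them. The titles put 3 libraries in each group, but for replicates 2 and 3 of LOC401312 the genotype field reads LOC401313 and LOC401314; the STEAP1B entry, whose span covers nearly all of the LOC401312 locus, had 94628, 92527 and 90297 counts in the LOC401312 libraries, against 9, 11 and 23 in the vector libraries. Totals ranged from 65823845 to 70202062 counts in LOC401312 libraries and from 60971105 to 73994619 counts in vector libraries. All 7 lung epithelial line markers, keratins and adhesion proteins among them, were counted in both groups, with summed levels of 10019 to 10543 CPM (TMM-scaled counts relative to library size) in LOC401312 and 9428 to 10333 CPM in vector, and 3 of them were called higher. The 9 urothelial-type markers summed to 19.0 to 21.7 CPM in LOC401312 and 27.0 to 28.2 CPM in vector, with 2 called lower, and KRT13 had 5, 0 and 0 counts in LOC401312, against 338, 253 and 286 counts in vector. All 16 placental markers were counted in LOC401312, with sums of 3.07, 148 and 106 CPM in replicates 1, 2 and 3, against 2.37 to 3.41 CPM in vector. The 7 fibroblast markers summed to 23.8 to 27.2 CPM in LOC401312 and to 69.9, 40.1 and 48.2 CPM in vector, with 2 called lower. The 13 mitochondrially encoded genes summed to 76470 to 78243 CPM in LOC401312 and 80137 to 83825 CPM in vector, and 23 of 77 ribosomal protein genes were called lower. The part of these differences in the results below was not tested, beyond the fits that left out single libraries or LOC401312 replicates 2 and 3 together.

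Promoter sequence was read for 5 members that the results turn on, because HIF is known to act through the letters ACGTG or GCGTG. The first 3 changed between the groups, and LDHA and PGK1 are textbook HIF targets that did not pass the test. Each window covers 250 bases before to 50 bases after a start site (RefSeq, GRCh38.p14), is written 5′ to 3′ along the gene, and has every ACGTG or GCGTG on either strand in capitals; where a gene has several start sites, the window with the most matches is shown. The genes shown were picked after their values were seen.
HIF1A (chr14:61695263-61695562, plus strand): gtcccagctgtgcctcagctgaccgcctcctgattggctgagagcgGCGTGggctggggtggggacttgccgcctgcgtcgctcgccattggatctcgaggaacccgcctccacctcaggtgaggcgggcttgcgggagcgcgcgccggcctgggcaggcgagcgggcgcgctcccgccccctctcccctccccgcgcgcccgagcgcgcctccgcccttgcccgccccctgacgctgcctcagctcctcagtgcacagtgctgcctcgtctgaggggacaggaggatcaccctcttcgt
EGLN1 (chr1:231422238-231422537, minus strand): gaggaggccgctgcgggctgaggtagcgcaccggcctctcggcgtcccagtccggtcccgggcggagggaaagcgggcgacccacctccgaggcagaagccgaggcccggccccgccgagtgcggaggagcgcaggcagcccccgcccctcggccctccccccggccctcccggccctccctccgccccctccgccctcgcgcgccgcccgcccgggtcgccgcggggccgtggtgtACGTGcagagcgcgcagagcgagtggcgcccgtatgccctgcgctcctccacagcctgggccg
PFKFB3 (chr10:6202682-6202981, plus strand): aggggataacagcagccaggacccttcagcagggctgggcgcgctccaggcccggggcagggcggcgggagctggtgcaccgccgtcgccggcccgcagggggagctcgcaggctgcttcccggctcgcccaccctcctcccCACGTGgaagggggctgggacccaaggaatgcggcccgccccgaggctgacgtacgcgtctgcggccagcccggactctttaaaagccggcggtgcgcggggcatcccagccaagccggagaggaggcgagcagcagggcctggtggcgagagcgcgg
LDHA (chr11:18394313-18394612, plus strand): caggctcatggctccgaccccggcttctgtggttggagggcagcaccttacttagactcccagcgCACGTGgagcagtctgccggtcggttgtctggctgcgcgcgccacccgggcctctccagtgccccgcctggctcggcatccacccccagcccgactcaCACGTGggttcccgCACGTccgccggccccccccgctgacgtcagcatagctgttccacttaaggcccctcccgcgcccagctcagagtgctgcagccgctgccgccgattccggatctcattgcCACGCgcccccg
PGK1 (chrX:78103998-78104297, plus strand): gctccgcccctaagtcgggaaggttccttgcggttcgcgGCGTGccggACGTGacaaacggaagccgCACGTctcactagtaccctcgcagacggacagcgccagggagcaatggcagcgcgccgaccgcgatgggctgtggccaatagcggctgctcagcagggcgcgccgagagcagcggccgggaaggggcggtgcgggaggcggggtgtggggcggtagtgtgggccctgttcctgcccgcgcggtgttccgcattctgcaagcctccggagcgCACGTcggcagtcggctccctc
EGLN1 has 1 match and HIF1A has 1, a GCGTG. PFKFB3 has 2 matches that overlap as the palindrome CACGTG, one on each strand. LDHA has 6 and PGK1 has 4. RefSeq windows were at hand for 31 of the 36 members, and ACGTG was found in 18 of these (58.1%), against 24.9% of 27305 genes. ACGTG or GCGTG was found in 28 (90.3%), against 52.4% of all genes. Counted by window, since some members have several start sites, ACGTG was found in 22 of 58 member windows (37.9%), against 21.4% of 35116 windows. EGLN3, P4HA2 and PGAM1 had neither in the windows read. The members were chosen partly as HIF targets, so these shares only describe the set, and a match is not evidence of binding.

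Across the set, 8 members passed an adjusted p of 0.05 in edgeR's quasi-likelihood test over all 19620 tested features, 4 higher and 4 lower in LOC401312. That is 22.2% of the members, where 8.72% of all tested features were called, 4.13% higher and 4.58% lower. Most members are abundant: among features averaging 4 CPM or more, 8 of 34 members (23.5%) and 12.7% of all features were called, with 5.73% of all features higher and 7.02% lower. Those higher were HIF1A, PFKFB2, EGLN1 and P4HA2, and those lower were PFKFB3, PFKP, NDRG1 and SLC2A1. The ratios of these 8 ran from 0.773 to 1.26. The median log2 change was -0.01 over the members and -0.00 over all features after TMM scaling, and 0.11 over both in the FPKM fit. Of the 36 estimates, 16 were above 0 and 20 below. In the glycolysis class 1 of 24 was higher and 3 were lower, and in the hypoxia class 3 of 12 were higher and 1 was lower. Of the 17 glycolytic enzymes proper, 1 was called (5.88%, against 8.72% of all tested features), and 2 were called with chromosome medians removed.

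**Figure D1:**
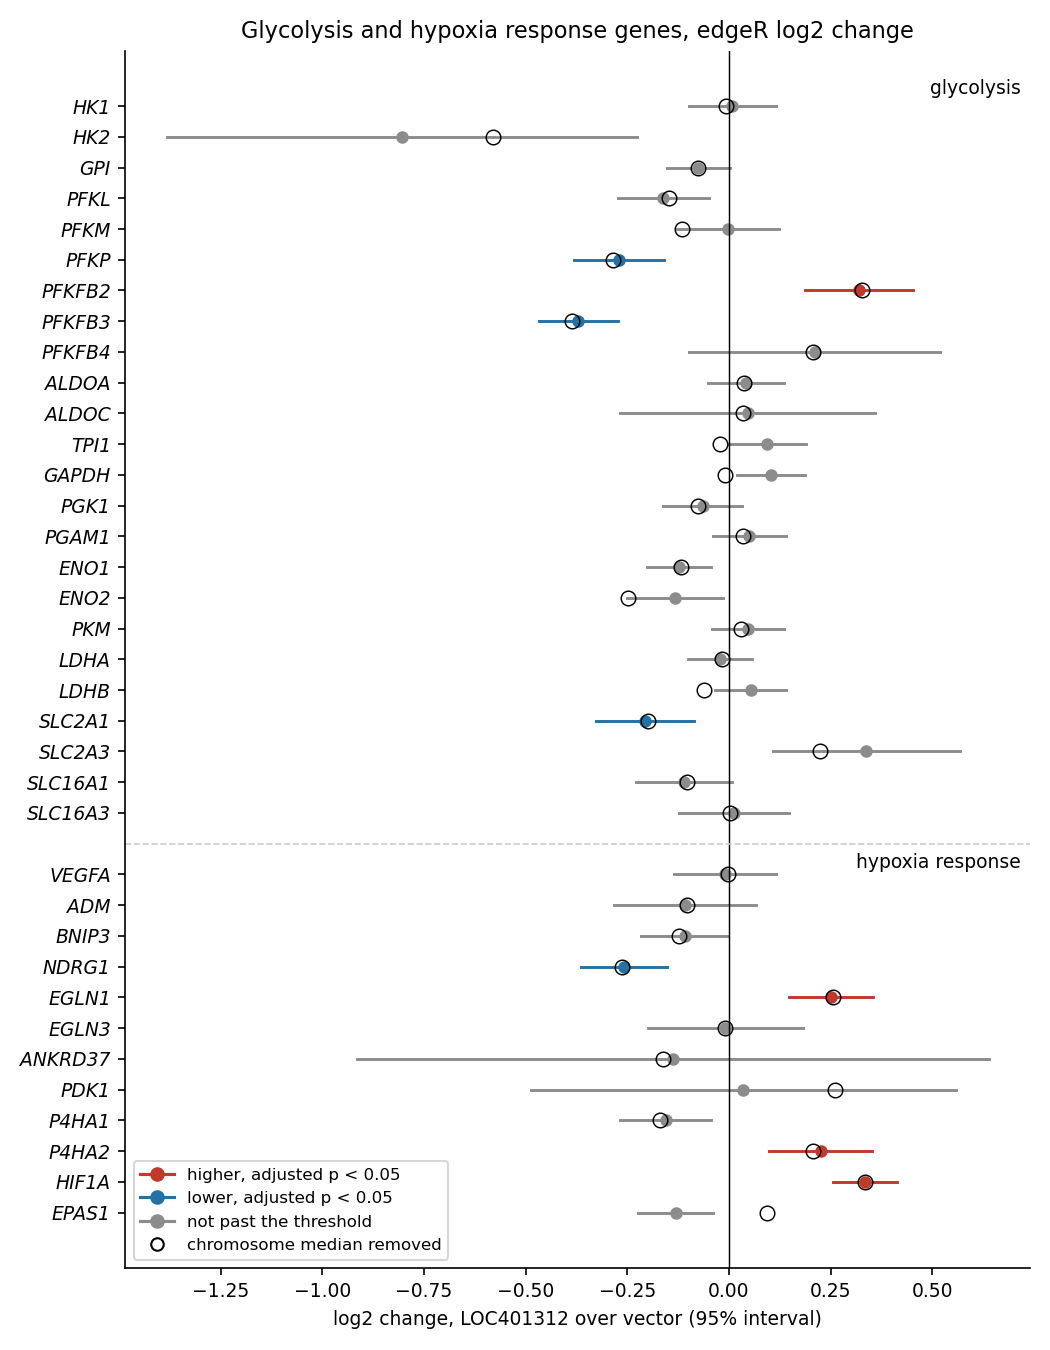
Log2 change of each member, LOC401312 over vector, with its 95% interval from edgeR's quasi-likelihood fit; filled points are coloured by the call and open circles give the change after each chromosome's median was removed. HIF1A (0.34) and PFKFB3 (-0.37) lie farthest from 0 among the called members, and HK2 has the lowest estimate (-0.80) with a wide interval.

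HIF1A, the oxygen-regulated HIF subunit, had the smallest adjusted p of the set. HIF1A (ENSG00000100644; GRCh38 chromosome 14, 61695513 to 61748258, plus strand) had 897.9, 914.3 and 925.1 CPM in LOC401312 libraries, against 749.9, 708.1 and 711.0 CPM in vector libraries. The groups did not overlap, and the gap between them was wider than the spread within either. HIF1A rose 1.26-fold, a log2 change of 0.34 (SE 0.04, adjusted p = 0.000386 by edgeR), and stayed called when any single library was left out (adjusted p 0.000256 to 0.00491). In bulk RNA, a change in the make-up of the cells and a change in RNA per cell cannot be told apart. The antisense entries HIF1A-AS1 and HIF1A-AS3 held 0.188% and 0.0337% of the HIF1A counts.

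EPAS1, which encodes the other main HIF alpha subunit, was not called. It had 260.3, 258.7 and 253.7 CPM in LOC401312, against 272.6, 296.4 and 277.2 CPM in vector. Every LOC401312 library lay below every vector library, but the log2 change of -0.13 (SE 0.04) missed the threshold (adjusted p = 0.0861 by edgeR). EPAS1 lies on chromosome 2, whose genes had a median log2 change of -0.23. With that median removed, EPAS1 was at 0.09 (adjusted p = 0.253), so its direction turned. Of the summed FPKM of HIF1A and EPAS1, EPAS1 made up 16.6% ± 0.386 in LOC401312 and 21.6% ± 1.20 in vector (SD, n = 3 each). Such a share is free of library scaling, but it keeps the chromosome 2 shift and also moves with HIF1A. EPAS1 itself averaged 30.9 FPKM in LOC401312 and 31.0 FPKM in vector, and HIF1A 155.1 FPKM in LOC401312 and 112.8 FPKM in vector.

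Of the hydroxylases that mark HIF alpha for decay, EGLN1 was called and EGLN3 was not. EGLN1, the main HIF prolyl hydroxylase in most cells (GRCh38 chromosome 1, 231363751 to 231422287, minus strand), had 113.6, 117.9 and 125.6 CPM in LOC401312, against 100.6, 100.6 and 98.9 CPM in vector. It rose 1.19-fold (log2 change 0.25, SE 0.05, adjusted p = 0.00875 by edgeR), with no overlap, and the call was lost without vector replicate 3 (adjusted p = 0.0513). EGLN3, its strongly hypoxia-inducible relative, had 13.2, 12.9 and 13.8 CPM in LOC401312, against 12.5, 14.1 and 13.6 CPM in vector. Its log2 change was -0.01 (95% interval -0.20 to 0.18), and the groups overlapped.

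Among the secreted and stress targets of HIF, NDRG1 alone was called. NDRG1, a cytosolic protein induced by low oxygen and other stresses (GRCh38 chromosome 8, 133237175 to 133302022, minus strand), had 39.1, 38.9 and 40.1 CPM in LOC401312, against 46.2, 48.2 and 46.8 CPM in vector. It fell by 0.26 on the log2 scale (SE 0.05, adjusted p = 0.00843 by edgeR), to 0.836 times the vector level, and lost its call without LOC401312 replicate 2 (adjusted p = 0.0506). VEGFA, the angiogenic growth factor, had 41.4, 39.8 and 42.1 CPM in LOC401312, against 39.5, 43.9 and 40.8 CPM in vector. These groups overlapped fully, and the 95% interval of the ratio, 0.911 to 1.08, leaves room only for small changes in either direction.

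ADM, the vasodilator peptide adrenomedullin, averaged 25.4 ± 0.685 CPM in LOC401312 and 27.4 ± 2.49 CPM in vector (SD, n = 3 each), with a log2 change of -0.11 (adjusted p = 0.477 by edgeR). BNIP3, a mitochondrial receptor for mitophagy, averaged 54.8 ± 0.978 CPM in LOC401312 and 59.1 ± 2.71 CPM in vector (SD, n = 3 each), with a log2 change of -0.11 (adjusted p = 0.216). Neither passed. ANKRD37, a small ankyrin repeat protein, stood at 0.569 to 0.806 CPM in LOC401312 and 0.585 to 0.975 CPM in vector, and PDK1, the kinase that shuts off pyruvate dehydrogenase, at 4.36 to 5.64 CPM in LOC401312 and 3.49 to 6.94 CPM in vector. The 95% interval of the ratio was 0.531 to 1.56 for ANKRD37 and 0.713 to 1.47 for PDK1, whose vector replicate 1 lay well above the other vector libraries. UFSP2 overlaps ANKRD37 on the other strand with 6513 counts over the 6 libraries, against 286 for ANKRD37, so the ANKRD37 count is uncertain.

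The collagen prolyl hydroxylase subunits, HIF targets that modify collagen in the endoplasmic reticulum, had log2 changes of opposite sign. P4HA2 (GRCh38 chromosome 5, 132191838 to 132295315, minus strand) had 58.9, 54.5 and 54.2 CPM in LOC401312, against 44.7, 49.3 and 49.5 CPM in vector. It rose 1.17-fold (log2 change 0.23, SE 0.06, adjusted p = 0.0351 by edgeR), but the call ended whichever library was left out (adjusted p 0.0683 to 0.131) and with chromosome medians removed (adjusted p = 0.0749). SLC22A4, which overlaps it on the other strand with 17.7% as many counts, had a log2 change of 0.57 (adjusted p = 0.0102), and its part in the P4HA2 value was not tested. P4HA1 had 42.7, 41.8 and 42.4 CPM in LOC401312, against 49.1, 47.2 and 45.1 CPM in vector, a log2 change of -0.16 (SE 0.05) that missed the threshold (adjusted p = 0.091). Of the summed FPKM of both subunits, P4HA2 made up 32.4% ± 0.853 in LOC401312 and 27.0% ± 1.88 in vector (SD, n = 3 each).

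**Figure D2:**
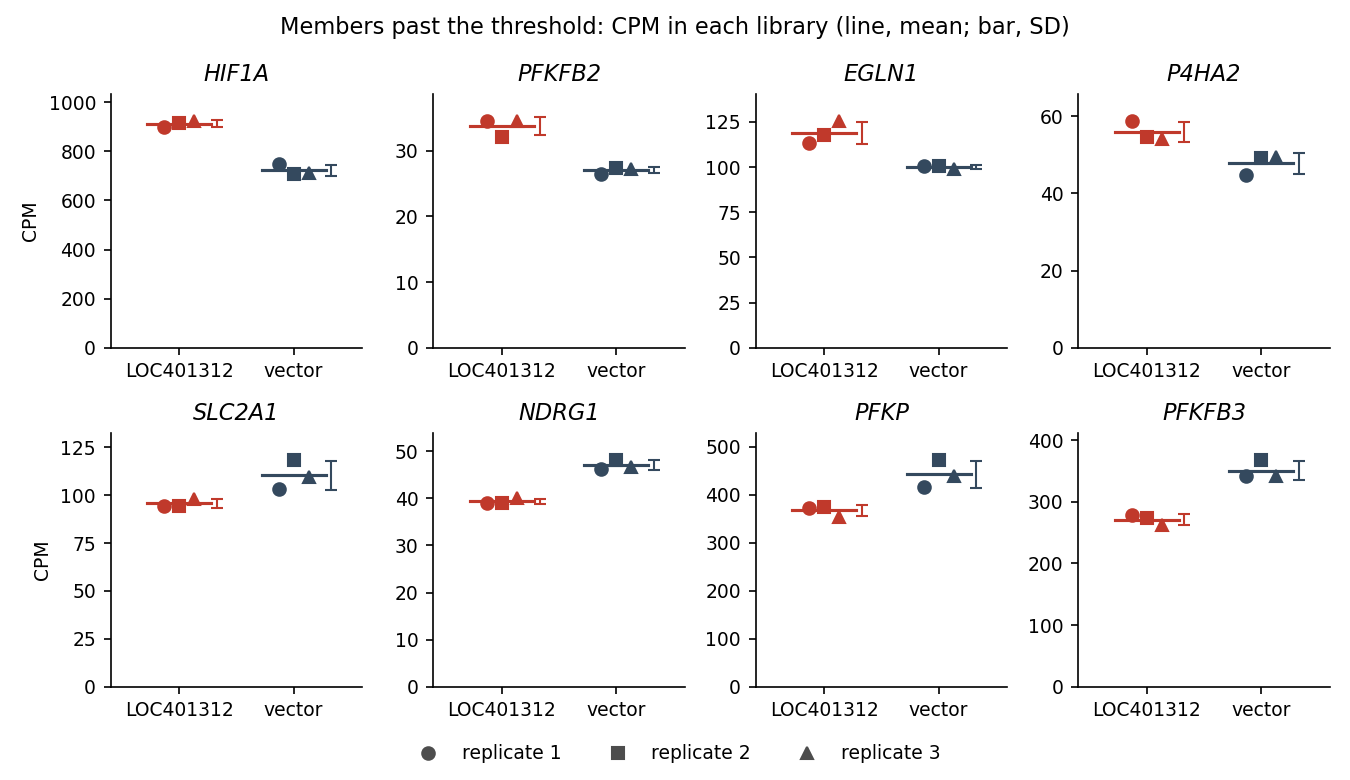
CPM of the 8 members past the threshold in each library, LOC401312 left and vector right in each panel; symbols mark the replicate, lines the mean and bars the SD (n = 3 each), and each axis starts at 0. HIF1A, PFKFB2, EGLN1 and P4HA2 (top row) lie higher in all 3 LOC401312 libraries, and SLC2A1, NDRG1, PFKP and PFKFB3 (bottom row) lower.

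Members of the PFKFB family were called in opposite directions. They encode the enzymes that make and remove a sugar phosphate known as a strong activator of phosphofructokinase. PFKFB3, the isoform with the most kinase-biased activity (GRCh38 chromosome 10, 6144934 to 6254644, plus strand), had 278.3, 273.7 and 262.0 CPM in LOC401312, against 342.5, 368.4 and 341.6 CPM in vector. It fell by 0.37 on the log2 scale (SE 0.04, adjusted p = 0.000754 by edgeR), to 0.773 times the vector level, and no left-out library ended the call (adjusted p 0.00119 to 0.0073).

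PFKFB2, the isoform known from heart and from Akt signalling (GRCh38 chromosome 1, 207034366 to 207081024, plus strand), moved the other way. It had 34.5, 32.2 and 34.6 CPM in LOC401312, against 26.6, 27.4 and 27.2 CPM in vector, and rose by 0.32 on the log2 scale (SE 0.06, adjusted p = 0.00875 by edgeR). Leaving out single libraries kept it called (adjusted p 0.0216 to 0.0496). YOD1, which overlaps PFKFB2 on the other strand and holds 70.3% as many counts, had a log2 change of 0.05 (adjusted p = 0.787). PFKFB4 had 6.80, 7.88 and 7.55 CPM in LOC401312, against 7.55, 6.04 and 5.59 CPM in vector, with overlap and a log2 change of 0.21 (SE 0.14, adjusted p = 0.425). UCN2 overlaps PFKFB4 on the same strand with 30.7% as many counts and had a log2 change of 0.56 (adjusted p = 0.153 by edgeR). The part of UCN2 in the PFKFB4 value was not tested. Of the family's summed FPKM, PFKFB3 made up 90.8% ± 0.431 in LOC401312 and 93.9% ± 0.336 in vector, and PFKFB2 6.79% ± 0.380 in LOC401312 and 4.35% ± 0.144 in vector (SD, n = 3 each).

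Phosphofructokinase, the committed step that these enzymes control, was lower in its main isoform. PFKP, the platelet-type subunit (GRCh38 chromosome 10, 3066333 to 3137715, plus strand), had 373.4, 375.2 and 353.8 CPM in LOC401312, against 416.9, 473.1 and 439.1 CPM in vector. It fell by 0.27 on the log2 scale (SE 0.05, adjusted p = 0.00839 by edgeR), to 0.829 times the vector level, with adjusted p of 0.00334 to 0.0455 as single libraries were left out. The liver-type PFKL averaged 64.9 ± 1.91 CPM in LOC401312 and 72.6 ± 3.57 CPM in vector (SD, n = 3 each); its log2 change of -0.16 missed the threshold (adjusted p = 0.0805). The muscle-type PFKM averaged 82.5 ± 6.07 CPM in LOC401312 and 82.6 ± 1.51 CPM in vector (SD, n = 3 each), with a log2 change of -0.00, and of -0.12 (adjusted p = 0.274) with the median of its chromosome, 12, removed. PFKP made up 78.0% ± 0.421 of the summed FPKM of the 3 genes in LOC401312 and 80.3% ± 0.703 in vector (SD, n = 3 each). SENP1 overlaps PFKM on the other strand with 39.4% as many counts and had a log2 change of 0.00 (adjusted p = 0.996 by edgeR).

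SLC2A1 and SLC2A3 encode the glucose transporters GLUT1 and GLUT3. SLC2A1 (GRCh38 chromosome 1, 42925353 to 42958868, minus strand) had 94.6, 94.2 and 98.3 CPM in LOC401312, against 103.3, 118.5 and 109.4 CPM in vector, and fell by 0.21 on the log2 scale (SE 0.05, adjusted p = 0.0424 by edgeR). Of the 6 fits that left out a library, the one without vector replicate 1 kept the call, and the others lost it (highest adjusted p 0.162). It was also lost with total-count scaling (adjusted p = 0.0551) and with chromosome medians removed (adjusted p = 0.0564). SLC2A3 had 35.1, 38.9 and 33.8 CPM in LOC401312, against 33.5, 25.4 and 26.4 CPM in vector. Vector replicate 1 lay close to the LOC401312 libraries, and the log2 change of SLC2A3, 0.34 (SE 0.10), missed the threshold (adjusted p = 0.0758; 0.00623 without vector replicate 1). SLC2A3 lies on chromosome 12, whose genes had a median of 0.12, and stood at 0.22 (adjusted p = 0.255) with that median removed. SLC2A3 made up 28.97% ± 1.88 of the summed FPKM of both transporters in LOC401312 and 21.9% ± 3.74 in vector (SD, n = 3 each). This share keeps the chromosome 12 shift. SLC2A3 has a near-identical neighbour, SLC2A14, so its count is uncertain.

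Lactate leaves or enters the cell through SLC16A3 and SLC16A1, the monocarboxylate transporters MCT4 and MCT1, and neither passed. SLC16A3 had 171.0, 160.1 and 162.9 CPM in LOC401312, against 147.3, 172.1 and 170.8 CPM in vector, with a log2 change of 0.01 (95% interval -0.12 to 0.15). CSNK1D overlaps SLC16A3 on the other strand with 146% as many counts, and the counting's strand setting was not stated. SLC16A1 averaged 69.1 ± 3.09 CPM in LOC401312 and 74.5 ± 3.53 CPM in vector (SD, n = 3 each), a log2 change of -0.11 (adjusted p = 0.253 by edgeR).

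**Figure D3:**
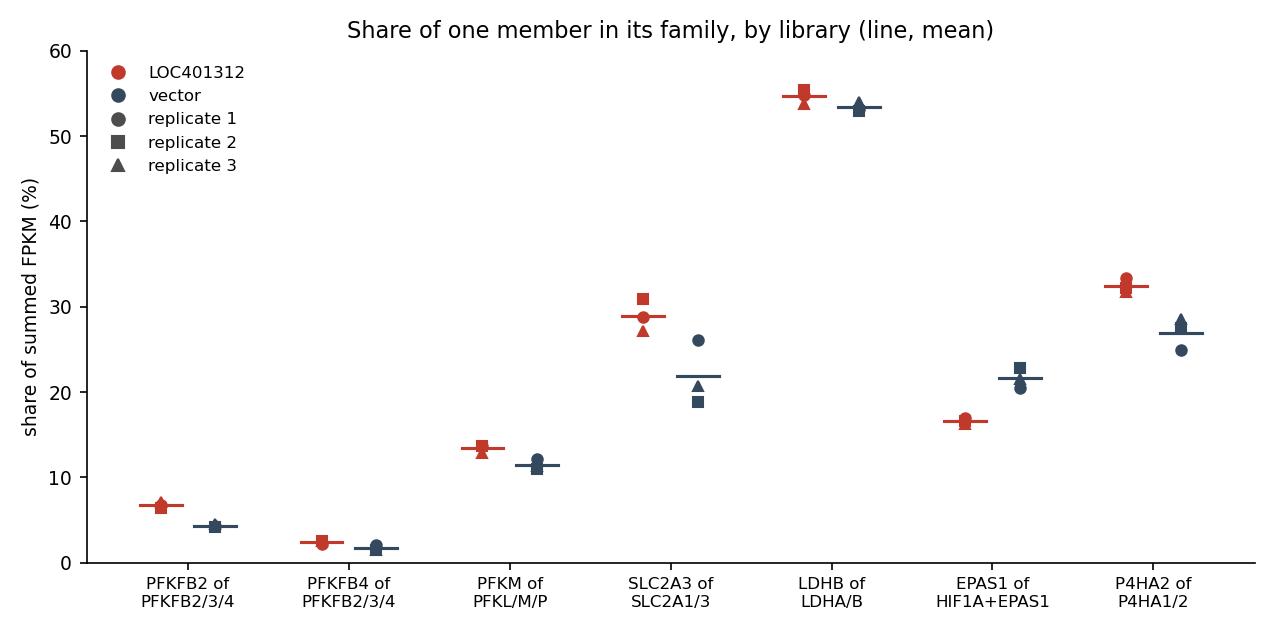
Share of one member in the summed FPKM of its family, in percent, for each LOC401312 (left) and vector (right) library, with the mean as a line (n = 3 each). The shares of PFKFB2, PFKFB4, PFKM, SLC2A3 and P4HA2 are higher and that of EPAS1 is lower in all 3 LOC401312 libraries. Those of LDHB overlap between the groups. The shares of PFKM, SLC2A3 and LDHB keep the shift of chromosome 12 (median log2 change 0.12), and that of EPAS1 the shift of chromosome 2 (-0.23).

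At the first step, hexokinase was almost wholly HK1, at 26.9 ± 0.847 FPKM in LOC401312 and 24.5 ± 0.599 FPKM in vector (SD, n = 3 each); its log2 change in counts was 0.01 (adjusted p = 0.95 by edgeR). HK2, the inducible hexokinase of many tumours, was scarce, with 0.935, 1.23 and 1.41 CPM in LOC401312, against 2.56, 1.97 and 1.71 CPM in vector. Its groups did not overlap, yet the log2 change of -0.80 (SE 0.26) missed the threshold (adjusted p = 0.0901). HK2 lies on chromosome 2 and, relative to that chromosome, stood at -0.58 (adjusted p = 0.239). HK2 made up 0.655% ± 0.146 of the summed FPKM of HK1 and HK2 in LOC401312 and 1.13% ± 0.309 in vector (SD, n = 3 each). This share leaves out HKDC1 and keeps the chromosome 2 shift.

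Apart from PFKP, none of the enzymes from GPI to LDHA passed the test. GAPDH, the dehydrogenase often used as a reference gene, was the most abundant member, with 4955.7, 4815.8 and 4608.9 CPM in LOC401312, against 4269.7, 4577.5 and 4532.8 CPM in vector. All LOC401312 libraries lay above all vector libraries, by little. Its log2 change was 0.10 (SE 0.04, adjusted p = 0.125 by edgeR). GAPDH lies on chromosome 12, whose genes had a median of 0.12, and stood at -0.01 (adjusted p = 0.916) with that median removed; total-count scaling, on the other hand, gave a log2 change of 0.13 that was called (adjusted p = 0.0294).

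TPI1, the triose isomerase, and LDHB, the lactate dehydrogenase subunit known for converting lactate to pyruvate, also lie on chromosome 12. Their log2 changes were 0.09 and 0.05 (adjusted p = 0.226 and 0.485), and turned to -0.02 and -0.06 with the chromosome median removed. ENO2, the neuron-type enolase on the same chromosome, had 40.0, 43.9 and 42.8 CPM in LOC401312, against 47.4, 46.1 and 45.3 CPM in vector. Its log2 change was -0.13 (adjusted p = 0.167 by edgeR), and -0.25 (adjusted p = 0.0197) with the median removed. LRRC23 overlaps ENO2 on the same strand with 29.7% as many counts and had a log2 change of -0.24 (adjusted p = 0.122 by edgeR). The part of LRRC23 in the ENO2 value was not tested. ENO1, the main enolase, had 2576.3, 2551.8 and 2459.8 CPM in LOC401312, against 2647.5, 2844.9 and 2774.1 CPM in vector, without overlap but short of the threshold (log2 change -0.12, SE 0.04, adjusted p = 0.0591). It was called without vector replicate 1 (adjusted p = 0.015).

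LDHA, which makes lactate from pyruvate, had 1998.3, 1990.6 and 1962.2 CPM in LOC401312, against 1974.9, 2111.6 and 1958.8 CPM in vector. The groups overlapped, and the 95% interval of its ratio was 0.932 to 1.04. PGK1, the kinase that makes the first ATP of the pathway, had 643.7, 619.0 and 607.0 CPM in LOC401312, against 621.3, 686.1 and 647.7 CPM in vector, with an interval of 0.894 to 1.02. PKM, the pyruvate kinase of most adult and tumour cells, had a log2 change of 0.05, ALDOA, the main aldolase, of 0.04, PGAM1, the phosphoglycerate mutase, of 0.05 and GPI, the glucose phosphate isomerase, of -0.08 (adjusted p 0.233 to 0.631). ALDOC, the brain-type aldolase, averaged 4.75 ± 0.478 CPM in LOC401312 and 4.596 ± 0.332 CPM in vector (SD, n = 3 each), a log2 change of 0.05. On the same strand, AC005726 overlaps ALDOC with 30.5% as many counts, and AC093512 overlaps ALDOA with 10.5% as many. Their part in the values of ALDOC and ALDOA was not tested. GAPDH, TPI1, LDHA, PGAM1 and BNIP3 have processed pseudogenes with counts of their own, so small shifts in them are uncertain.

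Per length, GAPDH led at 1752 ± 86.1 FPKM in LOC401312 and 1493 ± 10.2 FPKM in vector, followed by PKM at 499.8 ± 21.7 FPKM in LOC401312 and 442.9 ± 5.33 FPKM in vector and by ENO1 at 424.6 ± 15.2 FPKM in LOC401312 and 423.7 ± 6.38 FPKM in vector (SD, n = 3 each). LDHA and ALDOA, neighbours in that order, lay within their spread of each other in LOC401312, at 287.7 ± 6.36 and 281.9 ± 8.81 FPKM. HIF1A had 155.1 ± 0.711 FPKM in LOC401312 and 112.8 ± 8.22 FPKM in vector, and PGAM1 had 143.6 ± 4.84 FPKM in LOC401312 and 127.0 ± 3.08 FPKM in vector (SD, n = 3 each). HIF1A lay above PGAM1 in LOC401312 and below it in vector. At the low end were PFKFB4, PDK1, ANKRD37 and HK2, with HK2 at 0.177 ± 0.0351 FPKM in LOC401312 and 0.280 ± 0.0721 FPKM in vector. The deposited FPKM values were shifted: across 6137 features averaging 5 FPKM or more, their median log2 change was 0.11 in favour of LOC401312, against -0.02 in the counts. With limma on log2(FPKM + 0.1), 7 members were called higher and 1 lower, PFKFB3. Of all 19620 features in that fit, 1639 were called higher and 308 lower. PFKP, NDRG1 and SLC2A1 lost their calls, and ALDOA, TPI1 and PGAM1 were gained, each higher.

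**Figure D4:**
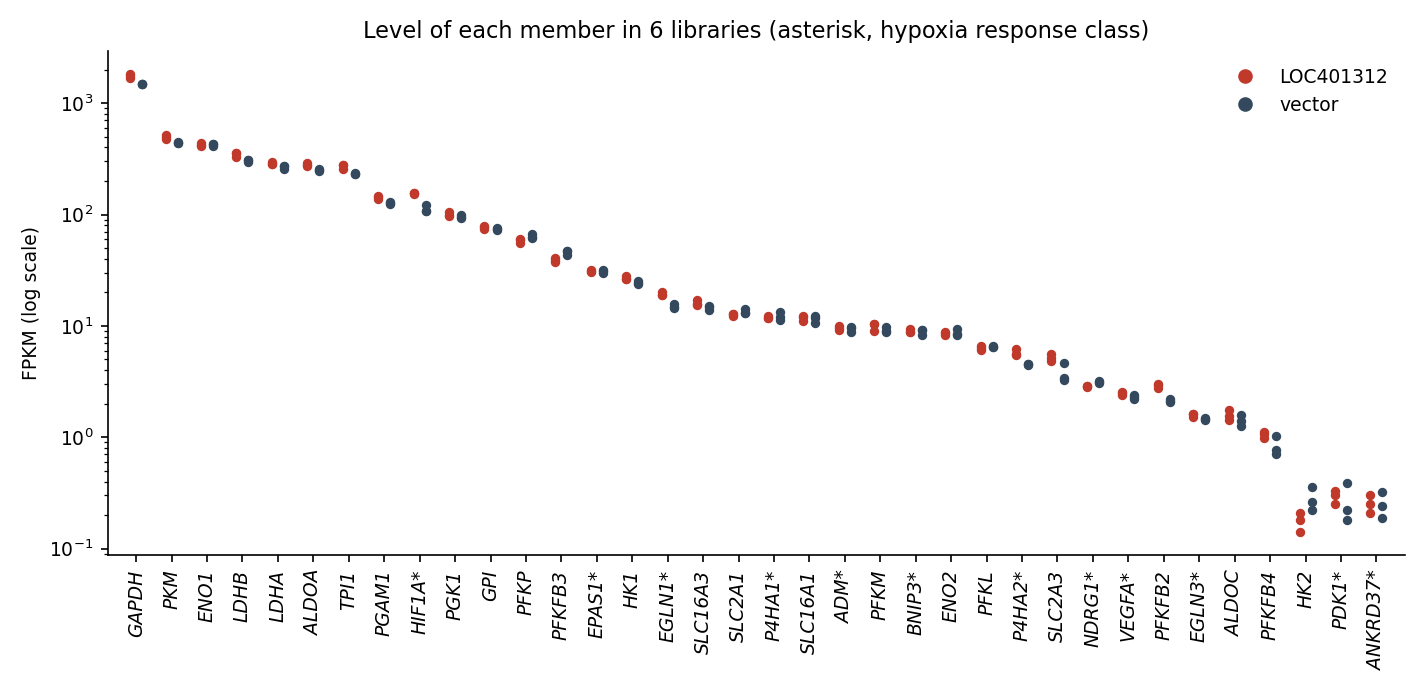
FPKM of the 36 members in each library on a log scale, ordered by the vector mean, with LOC401312 left of vector for each gene; an asterisk marks the hypoxia response class. GAPDH stands at the top, at 1752 FPKM in LOC401312 and 1493 FPKM in vector, and HK2, PDK1 and ANKRD37 lie below 1 FPKM in every library.

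Other genes of the same pathways were read from 3 lists. Of 48 further genes of glucose and pyruvate metabolism, 35 were tested, 4 were higher and 3 lower, 20% against the background of 8.72%, with a median log2 change of 0.04. SLC16A7, the monocarboxylate transporter MCT2, rose by 1.26 (SE 0.17, adjusted p = 0.00156 by edgeR), with 8.81, 7.48 and 8.94 CPM in LOC401312, against 4.33, 3.38 and 2.79 CPM in vector. It too lies on chromosome 12, and with that median removed it was at 1.15 (adjusted p = 0.00332). ENO3, the muscle-type enolase, fell by 0.61 (SE 0.09, adjusted p = 0.00329), with 14.4 ± 1.395 CPM in LOC401312 and 22.0 ± 1.54 CPM in vector (SD, n = 3 each).

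At the entry of pyruvate into mitochondria, PDK4, a kinase that inhibits pyruvate dehydrogenase, rose by 0.25 (SE 0.04, adjusted p = 0.00377), with 348.0, 342.9 and 367.8 CPM in LOC401312, against 301.4, 294.8 and 295.1 CPM in vector. PDHB, the beta subunit of that enzyme, fell by 0.27 (SE 0.05, adjusted p = 0.0063), with 51.3, 52.5 and 50.2 CPM in LOC401312, against 61.1, 60.03 and 64.3 CPM in vector. Both gaps exceeded the spread within the groups. The remaining calls were G6PC3 and PDP1, higher, and PCK2, lower.

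Of 25 genes of oxygen sensing and HIF assembly, 23 were tested and 1 was called (4.35%, against 8.72% of all tested features). HSP90AB1, a chaperone that HIF1A is known to bind, fell by 0.13 (SE 0.03, adjusted p = 0.0209 by edgeR), with 1852 ± 19.1 CPM in LOC401312 and 2026 ± 24.3 CPM in vector (SD, n = 3 each). VHL, the ligase subunit that captures hydroxylated HIF, had a log2 change of 0.04, ARNT, the partner of HIF alpha, of 0.09, and EGLN2, the remaining prolyl hydroxylase, of -0.02; none passed. The HSP90AB1 call was kept without vector replicate 1 and lost without any other library (highest adjusted p 0.0884).

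Among 43 further HIF targets, 5 were higher and 5 lower (23.3%, against 8.72% of all tested features), with a median log2 change of -0.08. With chromosome medians removed, 3 were higher and 4 lower. CA12, a membrane carbonic anhydrase, fell by 0.63 (SE 0.03, adjusted p = 8.4e-06 by edgeR), with 526.8, 534.3 and 535.4 CPM in LOC401312, against 823.0, 844.4 and 803.3 CPM in vector. IGFBP3, a carrier of insulin-like growth factors, fell by 0.63 (SE 0.06, adjusted p = 0.000208), with 23.8 ± 0.409 CPM in LOC401312 and 36.8 ± 1.54 CPM in vector (SD, n = 3 each). HILPDA, a lipid droplet protein, fell by 0.59 (SE 0.09, adjusted p = 0.00303), with 13.7, 14.4 and 13.4 CPM in LOC401312, against 20.2, 19.2 and 22.9 CPM in vector. ANGPTL4, a secreted inhibitor of lipoprotein lipase, rose by 0.54 (SE 0.07, adjusted p = 0.00153), with 24.9, 26.5 and 26.6 CPM in LOC401312, against 17.5, 17.1 and 18.8 CPM in vector. These 4 changes were each larger than that of any called member, and they did not share a direction. CA9, a standard marker of hypoxic cells, was near the floor, at 0.447 CPM in LOC401312 and 0.501 CPM in vector on average.

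**Figure D5:**
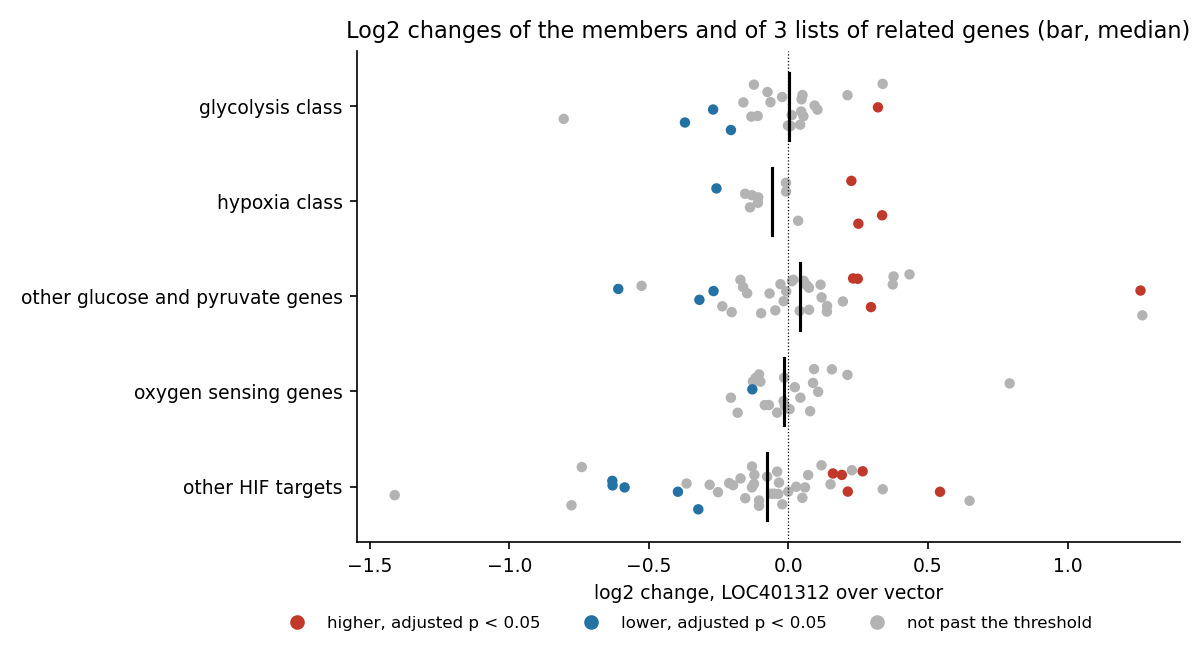
Log2 change, LOC401312 over vector, of each tested gene in the glycolysis class (24), the hypoxia class (12) and the 3 lists of related genes, coloured by the call, with the median as a bar; the vertical scatter carries no value. Called genes lie on both sides of 0 in every group but the oxygen sensing genes, where HSP90AB1 (-0.13) was the only call.

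The results were also set against the libraries that stood apart. With LOC401312 replicates 2 and 3 left out, replicate 1, which held 3.07 CPM of placental markers, was set against the 3 vector libraries, assuming that it varies as they do. No member was then called, and of all features 84 were higher and 91 lower. The log2 changes of the 8 members kept their direction and much of their size. Those of the higher members were 0.31 for HIF1A, 0.36 for PFKFB2, 0.19 for EGLN1 and 0.30 for P4HA2. Those of the lower members were -0.33 for PFKFB3, -0.24 for PFKP, -0.27 for NDRG1 and -0.22 for SLC2A1. For each of the 8, all 3 LOC401312 libraries lay outside the range of the vector libraries, replicate 1 among them. Replicate 1 and the 3 vector libraries were also in the fit that picked these 8 members. Some agreement in direction and size therefore follows from the selection, and it is not a separate check of the 8 changes. Without vector replicate 1, which had the highest fibroblast marker sum (69.9 CPM), 11 members were called: P4HA2 was lost, and ENO1, EPAS1, PFKL and SLC2A3 were gained. Calls over all features rose too, to 963 higher and 1042 lower, from 811 and 899 with all 6 libraries.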

How the data were processed

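RNA of 6 A549 libraries was measured, 3 per group, grouped by their titles. The deposited table gives 1 count column and 1 FPKM column per library, per the file headers. The counts were taken as raw. The headers do not say whether RNA was pooled or how the FPKM values were computed. Reads were processed with cutadapt 1.9 and FastQC on GRCh38 (hg38), per the submitters' processing notes. Aligner, counter, strand setting and annotation release were not given in the sources used here.

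Counts were fitted over all features with edgeR 4.0.16 in R 4.3.3 (TMM scaling, filterByExpr, group as the only term, quasi-likelihood F test, Benjamini-Hochberg adjustment, threshold 0.05). Of 38170 features, 19620 were tested. Each standard error is |log2 change| / √F, and 95% intervals use the fit's degrees of freedom. CPM uses TMM-scaled library sizes. The biological coefficient of variation was 17%. Within groups, every pair of libraries showed more than counting error (chi-square over its degrees of freedom 13.96 to 23.15), and each counted as 1 replicate. The fit was also run on simulated counts, drawn independently for each library from the means and dispersions of these data. Such a run cannot speak to technical replicates, chromosome shifts or marker differences between libraries.

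The members and lists were chosen with earlier results of these data known. Every member is named, and up to 4 called genes per list with the smallest p are given with values. HKDC1, VHL, ARNT, EGLN2, CA9, G6PC3, PDP1 and PCK2 were named after their values were seen. Alternatives were DESeq2 1.42.0, other scalings and filters, the replicate number as a block, single libraries left out, LOC401312 replicates 2 and 3 left out together, chromosome medians removed, and limma 3.58.1 on log2(FPKM + 0.1) and log2(FPKM + 1).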

Additional observations from a re-analysis of the deposited data

How the results depend on the processing

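No pairing by replicate number was visible: deviations of same-numbered libraries correlated at -0.088 to 0.0065, against -0.064 to 0.069 for other pairs. With so few libraries, these values cannot tell whether same-numbered libraries were handled together, and the labels do not say. With the replicate number as a block, 6 members stayed called, and P4HA2 (adjusted p = 0.107) and SLC2A1 (0.0985) were lost. With RLE scaling the same 8 members were called, and with DESeq2 12, ENO1, EPAS1, PFKL and SLC2A3 being added. Over all features, DESeq2 called 1204 higher and 1261 lower, against 811 and 899 by edgeR. The counts of calls that moved by more than 1.5 times were as follows, and the cause was not tested. With DESeq2, they were 2 glycolysis members higher, 5 glycolysis members lower, 2 hypoxia members lower, 8 other HIF targets higher and 8 other HIF targets lower. With total-count scaling, they were 2 glycolysis members higher. With no filter on low counts, they were 2 other HIF targets higher, 0 oxygen sensing genes lower and 577 features lower. With the replicate block, they were 2 other HIF targets higher, 0 oxygen sensing genes lower, 509 features higher and 579 features lower. Without LOC401312 replicates 2 and 3, they were 0 glycolysis members higher, 0 glycolysis members lower, 0 hypoxia members higher, 0 hypoxia members lower, 0 other HIF targets higher, 2 other HIF targets lower, 0 other glucose and pyruvate genes higher, 0 other glucose and pyruvate genes lower, 0 oxygen sensing genes lower, 84 features higher and 91 features lower. With chromosome medians removed, they were 3 other HIF targets higher and 525 features lower. By limma on log2(FPKM + 0.1), they were 4 glycolysis members higher, 1 glycolysis members lower, 0 hypoxia members lower, 8 other HIF targets higher, 3 other HIF targets lower, 10 other glucose and pyruvate genes higher, 1 other glucose and pyruvate genes lower, 1 oxygen sensing genes higher, 0 oxygen sensing genes lower, 1639 features higher and 308 features lower. By limma on log2(FPKM + 1), they were 4 glycolysis members higher, 1 glycolysis members lower, 0 hypoxia members lower, 9 other HIF targets higher, 3 other HIF targets lower, 9 other glucose and pyruvate genes higher, 1 other glucose and pyruvate genes lower, 1 oxygen sensing genes higher, 0 oxygen sensing genes lower, 1625 features higher and 305 features lower. By limma on log2(FPKM + 0.1), no filter, they were 0 glycolysis members lower, 0 hypoxia members lower, 3 other HIF targets lower, 1 other glucose and pyruvate genes lower, 1 oxygen sensing genes higher, 0 oxygen sensing genes lower and 163 features lower. With single libraries left out, the counts ran from 1 to 4 for other HIF targets higher, from 3 to 5 for other HIF targets lower, from 0 to 2 for oxygen sensing genes lower, from 393 to 963 for features higher, from 439 to 1042 for features lower, from 0 to 2 for hypoxia members lower, from 1 to 2 for glycolysis members higher, from 2 to 5 for glycolysis members lower and from 1 to 2 for hypoxia members higher. Among members that were not called, the log2 change turned sign in some fits. With chromosome medians removed, it was -0.00727 for HK1, -0.021 for TPI1, -0.0107 for GAPDH, -0.061 for LDHB and 0.0933 for EPAS1. By limma on log2(FPKM + 0.1), it was 0.051 for GPI, 0.12 for PFKM, 0.0624 for PGK1, 0.00284 for ENO1, 0.10 for LDHA, 0.0155 for SLC16A1, 0.11 for VEGFA, 0.0213 for ADM, 0.017 for BNIP3, 0.11 for EGLN3 and 0.0226 for ANKRD37. By limma on log2(FPKM + 1), it was 0.0504 for GPI, 0.11 for PFKM, 0.0618 for PGK1, 0.00284 for ENO1, 0.10 for LDHA, 0.0143 for SLC16A1, 0.0823 for VEGFA, 0.0194 for ADM, 0.0154 for BNIP3, 0.0724 for EGLN3 and 0.00454 for ANKRD37. With total-count scaling, it was 0.0222 for PFKM, 0.00213 for LDHA, 0.0161 for VEGFA and 0.0167 for EGLN3. With no filter on low counts, it was 0.00706 for PFKM, 0.000175 for VEGFA and 0.000699 for EGLN3. Without LOC401312 replicates 2 and 3, it was 0.0534 for PFKM, -0.00864 for ALDOC and 0.00451 for VEGFA. limma without a filter gave the same reversed values as limma on log2(FPKM + 0.1). With single libraries left out, it ranged from -0.0401 to 0.0426 for HK1, from -0.0361 to 0.058 for PFKM, from -0.00212 to 0.0735 for ALDOA, from -0.0387 to 0.10 for ALDOC, from -0.0426 to 0.0129 for LDHA, from -0.0583 to 0.051 for SLC16A3, from -0.0423 to 0.0354 for VEGFA, from -0.058 to 0.0302 for EGLN3, from -0.28 to 0.10 for ANKRD37 and from -0.16 to 0.38 for PDK1. No called member changed sign in any fit, though every fit reused libraries from which the called members were picked. The intervals were widest for ANKRD37, HK2 and PDK1; ANKRD37 had 35 to 60 counts per library.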
